A study of Mus musculus with 3 samples.

Results

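The genes described here encode lysosomal enzymes, lysosomal membrane proteins and the proton pump that acidifies the lysosome, together with Tfeb, a transcription factor of lysosomal genes. The list holds 43 genes, matched by symbol. It and the other gene lists below were chosen with earlier results of these data known. All 43 were found among the 16977 genes of the deposited expression table, and none was absent. All 43 also passed the filter on low values, a mean of at least 10 normalised reads over the libraries, as did 14148 genes in all.

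The cells were neural stem cells in culture, progenitors that still divide, from C57BL/6J mouse embryos at stage E12.5. All cultures grew on laminin with EGF at 20 ng/ml and FGF at 10 ng/ml, which keep such cells dividing, and all were infected with a lentivirus that carried a short hairpin RNA. The shControl group, with a control hairpin, was 1 library. The shPHF2 group, with a hairpin against Phf2, was 2 libraries described as biological replicates. Phf2 encodes a PHD-finger protein of the family that demethylates lysine 9 of histone H3. It fell from 2593 normalised reads in shControl to 985 and 714 in shPHF2 replicates 1 and 2 (log2 fold change -1.63; limma, adjusted p = 0.0085). The sources used here do not say how many hairpins against Phf2 were used, so an effect of the hairpin that does not pass through Phf2 cannot be told apart from one that does.

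Lysosomes are acid compartments in which proteins, glycans, glycosaminoglycans and lipids are broken down. Their soluble enzymes travel from the Golgi on mannose phosphate receptors, and a vacuolar ATPase pumps the protons on which the enzymes depend. Many of the genes are controlled by TFEB, TFE3 and MITF, basic helix-loop-helix factors that bind the E-box and a longer sequence around it named the CLEAR element, and that the kinase mTORC1 keeps out of the nucleus in fed cells. In the adult brain, quiescent neural stem cells are known for larger and more active lysosomes than dividing ones.

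Levels are normalised reads: read counts scaled by a size factor per library. The libraries held between 26302177 and 37171026 reads in genes. An SD is that of the 2 shPHF2 libraries; the control has no replicate, so its error could not be estimated. A gene is called where limma, fitted on log2(value + 1) across all genes tested, gave a Benjamini-Hochberg adjusted p under 0.05, and log2 fold changes are on that scale. With 1 control library the test assumes that the control varies like the shPHF2 libraries, and a control culture that differed by itself cannot be told apart from an effect of the hairpin. In bulk RNA, more cells with a transcript and more transcript per cell cannot be told apart either.

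The E-box and its longer form were searched in promoter windows of 300 bases from RefSeq (build GRCm38.p6), from 250 bases before to 50 after each start site. Of the 43 genes, 38 matched a window by symbol, with 42 windows in all. Asah1, Atp6v1h, Ctsb, Ctsh and Npc1 had none. The motifs were CACGTG, the E-box, and TCACGTG, the E-box with the T before it that the CLEAR element has; both strands were read, and the longer motif contains the shorter. At least 1 window held TCACGTG in 12 of the 38 lysosomal genes, or 31.6%. The share was 4.29% of 27025 genes with a window and 6.85% of the 10296 among them that were tested here. For CACGTG the shares were 36.8%, 8.09% and 11.5%, in the same order. Many lysosomal genes are already known to be controlled by factors that bind this element. These shares therefore describe the list and are not independent evidence.

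The stretches below show the longer motif in the called genes that hold it, and in Lamp1, chosen after its matches were seen because it held the most. The sequences are RefSeq's, 5′ to 3′ on the strand of the gene, and capitals mark TCACGTG on either strand. Where both strands match at the same place, 8 bases are in capitals. The stretches are 30 bases long, except that of Lamp1.
Arsa, chr15:89477424-89477453, minus strand: ttcaactcagtgTCACGTGttgtctgctcc
Ctsd, chr7:142388048-142388077, minus strand: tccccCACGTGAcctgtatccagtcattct
Ctsd, chr7:142387908-142387937, minus strand: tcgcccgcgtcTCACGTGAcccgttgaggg
Ctsa, chr2:164833749-164833778, plus strand: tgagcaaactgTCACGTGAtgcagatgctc
Lamp1, chr8:13159061-13159160, plus strand: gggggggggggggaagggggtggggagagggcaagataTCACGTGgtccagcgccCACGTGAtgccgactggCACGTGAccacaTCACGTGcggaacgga
The Lamp1 stretch is the 100 bases just before the start site and holds 4 matches. The Ctsa stretch spans the downstream of its 2 RefSeq start sites, and a second match, which begins 5 bases after that site, is not shown. The upstream Ctsd stretch overlaps no annotated exon, and the other one lies in an exon of a longer GENCODE transcript.

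**Figure D1:**
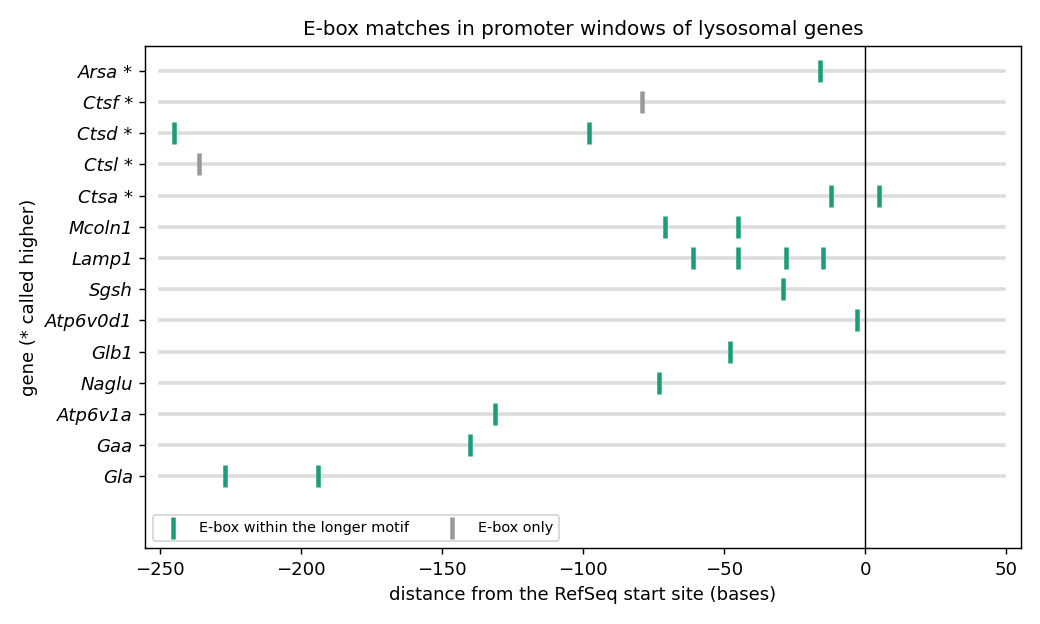
E-box matches in the promoter windows of the 14 lysosomal genes that have any; each grey line is a window, the horizontal axis is the distance in bases of the first base of a match from the RefSeq start site (vertical line), green ticks are matches within TCACGTG and grey ticks are CACGTG alone. Genes are ordered from the highest log2 fold change, at the top, to the lowest; the 5 genes with an asterisk were called higher, and Lamp1, with 4 matches, was not.

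Lysosomal genes as a list were higher in both shPHF2 libraries. Since the list was chosen with earlier results of these data known, the counts here describe it and are not independent evidence. Of the 43, 15 rose and 0 fell, or 34.9%, while 7.22% of all 14148 genes tested were called higher and 7.11% lower. Their log2 fold changes had a median of 0.54 (0.49 from replicate 1 alone, 0.61 from replicate 2 alone), and the median over all genes tested was -0.01. Before adjustment, 26 of the 43 had p under 0.05, all of them higher, against 15.8% of all genes tested. In 40 of the 43 genes both shPHF2 values lay above the control, an order that 41.4% of all genes tested showed, and 1 gene, Gla, lay below it in both. Reads on the 43 genes made up 0.359% of all reads in genes in the control library, and 0.583% and 0.639% in shPHF2 replicates 1 and 2. A log2 fold change of at least 1, a 2-fold difference, was found in 9 genes, against 10.0% of all genes tested. The number was 12 without replicate 1 (background 11.3%) and 7 without replicate 2 (background 9.58%).

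The count was close to this with other tools. On the recovered reads edgeR called 15 of the 43 higher and 0 lower, against 7.12% and 8.06% of all genes tested, and DESeq2 called 14 and 0, against 7.66% and 7.43%. At the same threshold the authors' deposited table holds 14 of the 43 as higher and 0 as lower, against 8.04% and 7.96% of genes with an adjusted p there. The calls depended on these settings: with no filter on low values, with no mean-variance trend or with quantile normalization limma called 0 of the 43 and 0 of all genes, while 21, 14 and 25 of the 43 had an unadjusted p under 0.05.

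**Figure D2:**
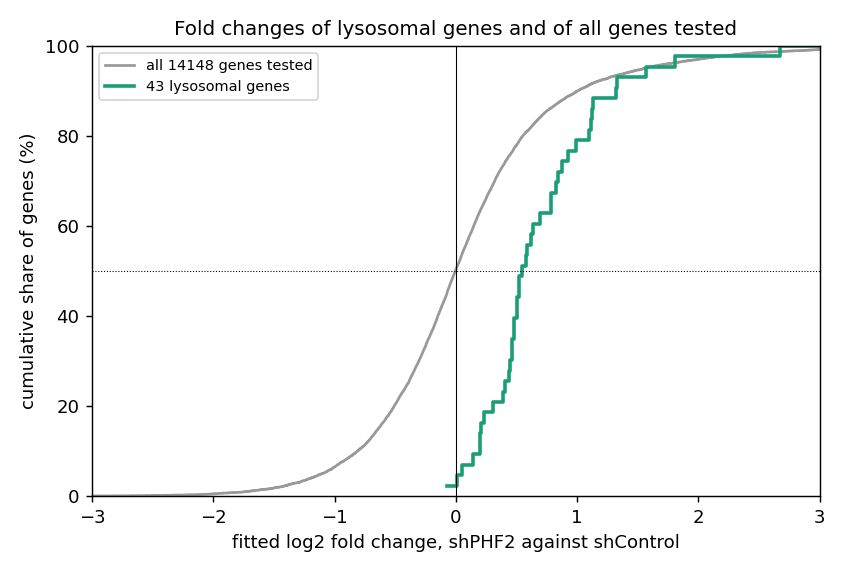
Cumulative share of genes (vertical axis, %) by fitted log2 fold change of shPHF2 against shControl (horizontal axis) for the 43 lysosomal genes (green) and all 14148 genes tested (grey). The green curve crosses 50% at 0.54 and the grey one at -0.01; 1 lysosomal gene lies below 0.

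**Figure D3:**
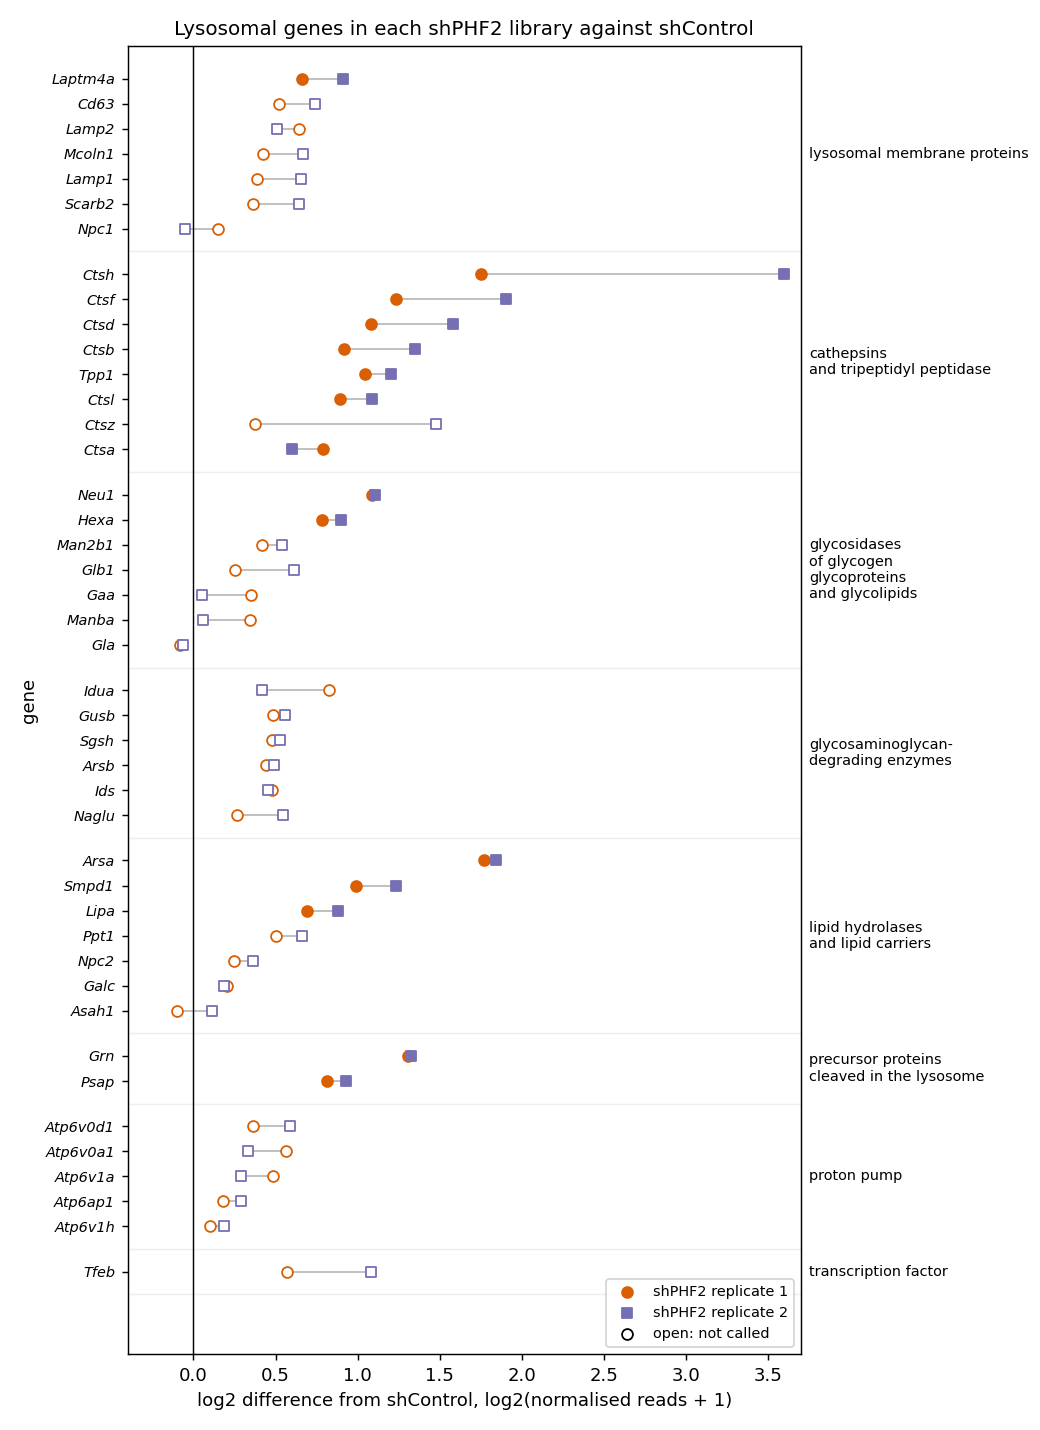
Log2 difference of each shPHF2 library from shControl (horizontal axis, on the log2(normalised reads + 1) scale) for the 43 lysosomal genes, grouped by role; circles are replicate 1, squares replicate 2, and filled symbols are called genes. Filled symbols mark 7 of 8 genes among the cathepsins and Tpp1 and both precursor proteins, and are missing from the proton pump, the glycosaminoglycan-degrading enzymes and Tfeb.

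Most of the protease genes were called. Of 8 genes for cathepsins and tripeptidyl peptidase, 7 rose, and the group's median log2 fold change was 1.13. This count and those of the other role groups below stand beside the 7.22% of all genes tested that were called higher. Ctsd, the gene of the aspartic protease cathepsin D and the most abundant protease per kilobase of exon (by the mean of the 3 libraries, as for all such ranks below), on chromosome 7 from 142375911 to 142388038 (GENCODE M21, GRCm38), stood at 9126 normalised reads in the control. The shPHF2 libraries had 19286 (replicate 1) and 27259 (replicate 2), a mean of 23272 ± 5638 (SD, n = 2). On the log2 scale Ctsd rose by 1.33 (SE 0.25; limma, adjusted p = 0.016). Both shPHF2 libraries were more than 2-fold above the control, with replicate 2 the higher.

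Ctsb and Ctsl encode the cysteine proteases cathepsins B and L. Ctsb went from 4228 normalised reads in shControl to 7983 and 10757 in the shPHF2 libraries, in the order replicate 1 and replicate 2, which is kept below. Its rise was 1.13 on the log2 scale (SE 0.22; limma, adjusted p = 0.017). Ctsl went from 2126 to 3941 and 4514, or 0.99 higher on the log2 scale (SE 0.18; limma, adjusted p = 0.015). For both genes the libraries of the 2 groups stood clearly apart, and the shPHF2 pair differed less from each other than from the control.

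Tpp1, the gene of tripeptidyl peptidase 1, which trims tripeptides from protein ends and is lost in a childhood form of neuronal ceroid lipofuscinosis, went from 2119 to 4376 and 4885 normalised reads. Tpp1 was thus 1.13 higher on the log2 scale (SE 0.18; limma, adjusted p = 0.0097). Ctsa encodes the carboxypeptidase that also protects beta-galactosidase and neuraminidase, and it went from 1141 to 1975 and 1733. Its log2 fold change of 0.70 lay just inside the threshold (SE 0.19; limma, adjusted p = 0.049). Ctsa was not called by DESeq2 on the recovered reads (adjusted p = 0.057).

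Ctsf and Ctsh, of the cysteine cathepsins F and H, were the genes in which the shPHF2 replicates differed most among those called. Ctsf went from 333 normalised reads to 784 and 1251, which is 1.57 higher on the log2 scale (SE 0.30; limma, adjusted p = 0.017). Ctsh, which per kilobase was the least abundant of the 43 in the control, went from 58.8 normalised reads to 200.1 and 723, a mean of 462 ± 370.0 (SD, n = 2). Its log2 fold change of 2.67 was the highest of the list (SE 0.66; limma, adjusted p = 0.035), and it was 1.75 without replicate 2 and 3.60 without replicate 1. Ctsz, of the carboxypeptidase cathepsin Z, was the protease not called: it had 342, 444 and 955 normalised reads and stood 0.93 above the control on the log2 scale (SE 0.42; limma, adjusted p = 0.17). Replicate 1 of Ctsz lay nearer to the control than to replicate 2.

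Both precursor proteins that cathepsins cleave inside the lysosome rose. Psap encodes prosaposin, the precursor of the saposins that present sphingolipids to their hydrolases, and it was the most abundant of the 43 genes per kilobase of exon. It went from 17156 normalised reads to 30183 and 32673, which is 0.87 higher on the log2 scale (SE 0.22; limma, adjusted p = 0.038). Grn encodes progranulin, a secreted growth factor that also reaches the lysosome, where it is cut into granulins. It went from 1377 normalised reads to 3414 and 3453, a mean of 3433 ± 27.6 (SD, n = 2) and 1.32 higher on the log2 scale (SE 0.17; limma, adjusted p = 0.0068). The shPHF2 libraries were nearly equal for Grn and 2.49-fold above the control in their mean.

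**Figure D4:**
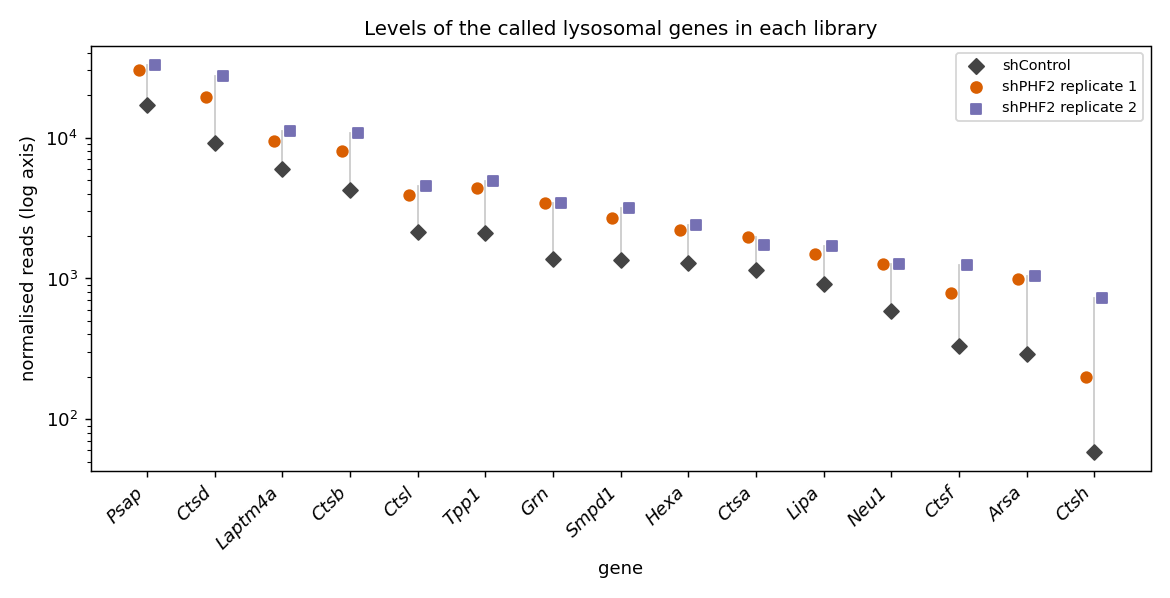
Normalised reads (vertical log axis) of the 15 called lysosomal genes in shControl (diamonds), shPHF2 replicate 1 (circles) and shPHF2 replicate 2 (squares), ordered by their level in shControl. Every diamond lies below both shPHF2 symbols, and Ctsh, at the right, has the widest gap between the shPHF2 libraries, at 200.1 and 723.

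Enzymes and carriers of lipid breakdown split. Of 7 genes 3 rose, and the group's median was 0.58. Arsa, the gene of arylsulfatase A, which removes sulphate from the myelin lipid sulphatide, lies on chromosome 15 from 89472476 to 89477425 (GENCODE M21, GRCm38). It went from 291 normalised reads to 994 and 1047, a mean of 1020.1 ± 37.3 (SD, n = 2). This was 1.81 higher on the log2 scale (SE 0.23; limma, adjusted p = 0.0064). The shPHF2 libraries were close to each other and more than 3 times as high as the control.

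Smpd1, the acid sphingomyelinase gene, went from 1348 to 2675 and 3168 normalised reads (log2 fold change 1.11, SE 0.19; limma, adjusted p = 0.013). Lipa, the gene of lysosomal acid lipase, which frees cholesterol from its esters, went from 918 to 1482 and 1689 (log2 fold change 0.78, SE 0.20; limma, adjusted p = 0.038). In both genes replicate 2 was the higher and the control lay below both shPHF2 libraries. Npc2, which hands cholesterol to the membrane transporter NPC1 and was the most abundant gene of the group per kilobase, had 5195, 6154 and 6673 normalised reads and was not called (log2 fold change 0.30, SE 0.18; limma, adjusted p = 0.29).

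Ppt1, the palmitoyl thioesterase gene, had a log2 fold change of 0.58 (limma, adjusted p = 0.067), just outside the threshold. Galc, which removes galactose from myelin lipids, stood at 0.20 (limma, adjusted p = 0.57). Asah1, the acid ceramidase gene, had 3596 normalised reads in shControl, 3360 in replicate 1 and 3885 in replicate 2, so the control lay between the shPHF2 libraries. Its log2 fold change was 0.01 with a 95% interval of -0.42 to 0.43.

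Among 7 glycosidases of glycogen, glycoproteins and glycolipids, 2 rose. Neu1, the sialidase gene that removes terminal sialic acid, went from 591 normalised reads to 1258 and 1276, or 1.10 higher on the log2 scale (SE 0.20; limma, adjusted p = 0.015). Hexa, the alpha subunit gene of the hexosaminidase that degrades GM2 ganglioside and the most abundant of the group per kilobase, went from 1291 to 2218 and 2413, or 0.84 higher on the log2 scale (SE 0.18; limma, adjusted p = 0.024). For both, the shPHF2 libraries lay close together, above the control.

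The other 5 glycosidases were not called, with log2 fold changes from -0.07 to 0.48. They were Gaa, the acid glucosidase gene for glycogen, Gla and Glb1, the alpha- and beta-galactosidase genes, and the mannosidase genes Man2b1 and Manba. Gla was the gene of the 43 with a negative fitted value, at 753 normalised reads in shControl, 711 in replicate 1 and 720 in replicate 2. The difference of Gla was small beside its error (limma, adjusted p = 0.86).

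None of the 6 glycosaminoglycan-degrading enzymes was called, yet all 6 stood above the control in both shPHF2 libraries. Gusb, Idua, Ids, Arsb, Naglu and Sgsh cut or desulphate heparan and dermatan sulphate, and all 6 are genes of the mucopolysaccharidoses. Their log2 fold changes lay between 0.41 and 0.62, with adjusted p from 0.12 to 0.32 (limma), and the median was 0.48. Ids, the iduronate sulphatase gene and the most abundant of them per kilobase, had 1747 normalised reads in shControl, 2431 in replicate 1 and 2394 in replicate 2. For Ids the 95% interval of the log2 difference, not adjusted for the number of genes, ran from 0.06 to 0.87.

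Of 7 membrane protein genes, 1 rose. Laptm4a, a gene of a small transmembrane protein of late endosomes and lysosomes, went from 5977 normalised reads to 9443 and 11221, or 0.78 higher on the log2 scale (SE 0.19; limma, adjusted p = 0.036). Lamp1 and Lamp2 encode the heavily glycosylated proteins that line the lysosomal membrane. Lamp1, the most abundant of the group per kilobase, had 12562 normalised reads in the control against 16432 and 19761 (log2 fold change 0.52, SE 0.21; limma, adjusted p = 0.14). Lamp2 had 7641, 11926 and 10854 normalised reads (log2 fold change 0.57, SE 0.19; limma, adjusted p = 0.078).

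For both Lamp genes the control lay below both shPHF2 libraries, by a margin that the test did not call. The unadjusted 95% intervals of the log2 difference were 0.03 to 1.01 for Lamp1 and 0.14 to 1.01 for Lamp2. Cd63, a tetraspanin gene, Scarb2, which encodes the carrier of glucocerebrosidase, and Mcoln1, the gene of the lysosomal calcium channel TRPML1, had log2 fold changes of 0.63, 0.50 and 0.54 and were not called. Npc1, the cholesterol transporter gene, had 2738, 3032 and 2642 normalised reads in shControl, replicate 1 and replicate 2, so the control lay between the shPHF2 libraries.

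None of the 5 proton pump genes was called, and their median log2 fold change was 0.39. All 5 stood above the control in both shPHF2 libraries. Atp6v1a, the catalytic subunit gene of the cytosolic sector and the most abundant of the group per kilobase, had 9037 normalised reads in shControl, 12657 in replicate 1 and 11028 in replicate 2. Its log2 fold change was 0.39 with a 95% interval of -0.06 to 0.83 (limma, adjusted p = 0.22). Atp6v0d1 and Atp6v0a1, of the membrane sector, stood at 0.47 and 0.45, the accessory gene Atp6ap1 at 0.23 and Atp6v1h, which couples the sectors, at 0.14.

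Tfeb, the transcription factor of the list, was expressed at a low level. It had 137 normalised reads in the control against 203 and 291, a difference of 0.83 on the log2 scale (SE 0.37; limma, adjusted p = 0.17). Both shPHF2 libraries lay above the control, and the 95% interval was -0.02 to 1.67. TFEB is controlled mainly by where the protein is in the cell, which RNA levels do not show.

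In all, 28 of the 43 genes were not called, and 27 of these had a log2 fold change above 0. For 17 of the 28 the unadjusted 95% interval spanned 0. Replicate 2 was the higher shPHF2 library in 33 of the 43 genes, and in 14 of the 15 called genes, with Ctsa the exception. The share of all genes tested with this order was not counted, so it is not read as a trait of these genes.

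Genes with and without TCACGTG in the promoter window were set side by side. Of 12 genes with the motif 3 (25.0%) were called, with a median log2 fold change of 0.49. Of 26 genes with a window and no match 10 (38.5%) were called, with a median of 0.63. Over all genes tested 7.22% were called higher. That share was not counted apart for tested genes with and without the motif, so no link between motif and calls is read from these counts. The called genes without a match included Grn, Tpp1, Smpd1 and Neu1, named after their values were seen. A match is a description of these letters in this window and says nothing of whether a factor binds there.

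The called genes lay on 11 chromosomes. Their longest transcripts had a median GC content of 54.5% and a median length of 2743 bases, against 51.0% and 3417.5 bases for the 28 genes not called and 49.7% and 3387 bases for all genes tested with a model. When each library was corrected for a smooth trend on GC content and length, 11 of the 43 genes rose and 0 fell, while 4.14% of genes tested were called higher and 4.86% lower. Ctsa, Ctsf, Ctsh and Psap were then no longer called, with adjusted p of 0.092, 0.052, 0.091 and 0.069 (limma). Their corrected log2 fold changes were 0.57, 1.44, 2.63 and 0.74, and the median of the list was 0.50.

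Exons of 17 of the 43 genes overlap exons of another annotated gene, including those of 7 called genes, and the sources used here do not say whether reads were counted by strand. Values of those genes are uncertain to that extent. Among the called genes, Ctsb overlaps Fdft1, which stood at 2156, 1974 and 1811 normalised reads, and Ctsa overlaps Pltp, which rose from 7.97 to 40.0 and 160.4 (log2 fold change 3.18; limma, adjusted p = 0.045). The part of this overlap in the Ctsa value was not tested. Ctsd shares exons on its own strand with the gene model Gm49369 (808 bases), and Ctsl with the processed pseudogene Gm49230 (395 bases). On the other strand Ctsl overlaps Gm47123 (1742 bases), Arsa overlaps C230037L18Rik (690 bases), Hexa overlaps Tmem202 and Grn overlaps Fam171a2. Among genes not called, Atp6v1h overlaps Rgs20, which rose from 272 to 827 and 869.

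Lysosomal genes outside the list were given by a second list of 44 genes for other enzymes and membrane proteins, of which 42 were in the table. Of the 42 tested 12 rose and 0 fell, with a median of 0.54. This and the counts below stand beside the 7.22% of all genes tested that were called higher and the 7.11% called lower. Naaa, an amidase gene for lipid amides, went from 118 to 443 and 324 normalised reads, a log2 fold change of 1.68. Ctso, a cysteine cathepsin gene, went from 486 to 1176 and 1373 (1.38 on the log2 scale), and Lgmn, of the protease legumain that activates cathepsins, from 558 to 1326 and 1564 (1.37 on the log2 scale). Ctns, the cystine exporter gene, went from 465 to 1201 and 1007, a log2 fold change of 1.24. In each of these genes both shPHF2 libraries were more than 2-fold above the control. Of the 42, 5 had a negative log2 fold change, down to -0.61, and 4 lay below the control in both shPHF2 libraries. After the GC and length correction 8 of the 42 were called higher and 0 lower, against 4.14% and 4.86% of genes tested.

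Of 14 other proton pump subunit genes tested 2 (14.3%) rose and 0 fell, with a median of 0.32. Tcirg1, an isoform of the membrane subunit a, went from 287 to 628 and 692 normalised reads (1.20 on the log2 scale), and Atp6ap2, an accessory subunit gene, from 2352 to 3858 and 4021 (0.74 on the log2 scale). After the GC and length correction Tcirg1 was just outside the threshold (limma, adjusted p = 0.0501). Among 14 genes that sort enzymes to the lysosome 1 rose and 0 fell, with a median of 0.11, a share of 7.14% called higher that is near that of all genes. This was Igf2r, the large mannose phosphate receptor gene, which went from 4983 normalised reads to 15679 and 10739, or 1.38 higher on the log2 scale (SE 0.25; limma, adjusted p = 0.014). The small receptor gene M6pr, named after its values were seen, stood at 4789, 4353 and 4861, with no gap between the groups.

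The list of MiT/TFE factors and lysosomal mTORC1 signalling held called genes in both directions. Of 21 genes tested 3 (14.3%) rose and 2 (9.52%) fell, with a median of 0.18. Mitf went from 161 to 400.2 and 486 normalised reads (1.44 on the log2 scale). Tfe3, named outside the rule of the 4 largest differences, went from 1131 to 1975 and 1986 (0.81 on the log2 scale). Rragd, a Rag GTPase gene, rose from 1951 to 3536 and 3341 (0.82 on the log2 scale). Another Rag GTPase gene, Rragb, fell from 619 to 292 and 300.2 normalised reads, and Fnip2, of the folliculin partner, from 2603 to 1480 and 1301. Their log2 fold changes were -1.06 and -0.91. After the GC and length correction Rragb was not called (limma, adjusted p = 0.061).

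Of 31 autophagy genes 6 rose and 0 fell, with a median of 0.35. Sqstm1, the gene of the cargo receptor p62, went from 3421 normalised reads to 9125 and 8939, or 1.40 higher on the log2 scale (SE 0.17; limma, adjusted p = 0.0064). Gabarapl1, of the ATG8 family that decorates autophagosomes, went from 1402 to 3288 and 3791 (1.33 on the log2 scale). Wipi1, of a phosphoinositide-binding protein, went from 152 to 387 and 558 (1.61 on the log2 scale), and Atg9a, of the lipid scramblase, from 886 to 1827 and 1922 (1.08 on the log2 scale). The core conjugation genes Atg3, Atg5, Atg7, Atg12 and Atg16l1 were not called.

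**Figure D5:**
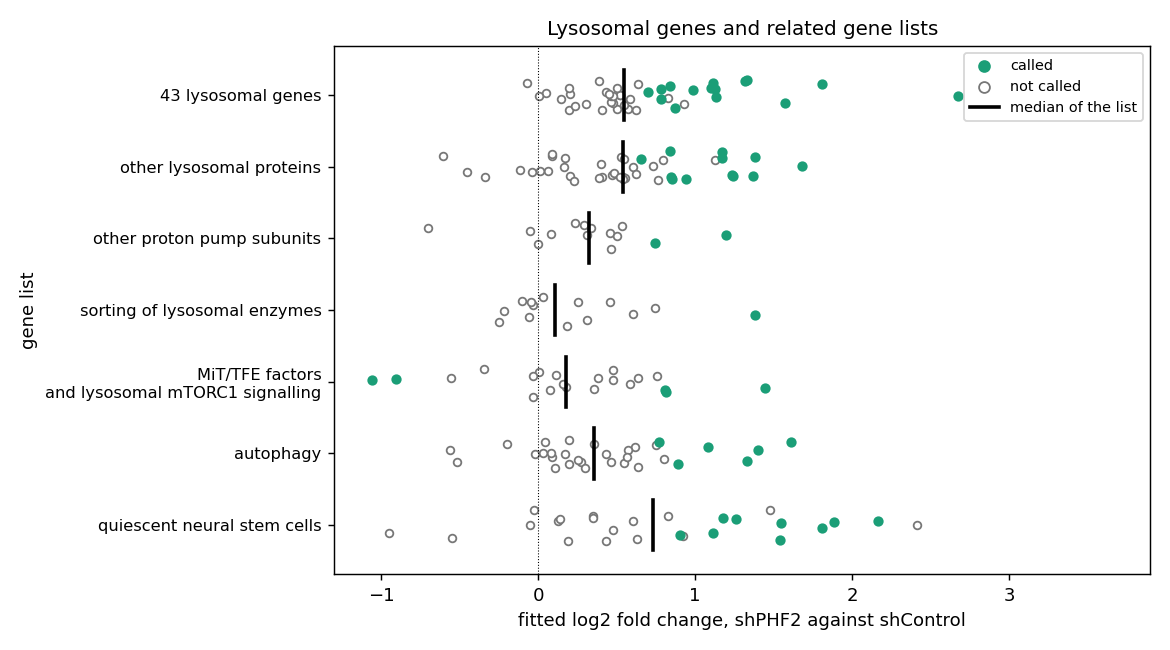
Fitted log2 fold change of shPHF2 against shControl (horizontal axis) of each gene tested, for the 43 lysosomal genes and 6 related lists; filled points are called genes, open points are not called, and black bars are list medians. The medians run from 0.11 for sorting to 0.73 for genes associated with quiescent neural stem cells, and called genes below 0 appear in the mTORC1 signalling list alone.

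Genes associated with quiescent neural stem cells were read beside the lysosomal list. Of 26 tested 9 rose and 0 fell, with a median of 0.73. Clu, of the secreted chaperone clusterin, went from 96.7 to 370.2 and 514 normalised reads (2.16 on the log2 scale). Id2, an inhibitor of proneural factors, went from 955 to 3105 and 4017 (1.89 on the log2 scale). Sparcl1, of a matrix protein, went from 12044 to 33997 and 52281 (1.81 on the log2 scale), and the metallothionein gene Mt2 from 1126 to 2967 and 3657 (1.55 on the log2 scale). Other members of the same list did not follow: Hopx, Sox9, Glul and Vcam1, named after their values were seen, had log2 fold changes of 0.19, -0.03, -0.05 and -0.55 and were not called.

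The labelled cell type was checked on its markers. All 10 neural stem cell markers were in the table, led by Nes, Slc1a3, Vim and Fabp7, with summed levels of 333735 normalised reads in shControl and 346604 and 389849 in shPHF2; the median log2 fold change was -0.12, 7 of the 10 were negative, and 5 lay below the control in both shPHF2 libraries. By limma 1 of the 10, Sox2, was called higher (adjusted p = 0.048), which was not so with edgeR (adjusted p = 0.054) or with values corrected for GC and length (adjusted p = 0.072). DESeq2 on the recovered reads and the authors' deposited table each called 2 of the 10 higher and 0 lower. Of 18 markers of microglia and macrophages, which are rich in lysosomes, 10 were absent from the table used here, and Aif1 and Tmem119 were at 0 in shControl and under 5 normalised reads in shPHF2. The summed level of the 8 in the table was 315 normalised reads in shControl and 394 and 342 in shPHF2, most of it from Cd68 (195, 148 and 102) and P2ry12 (99.7, 204 and 213), and none of the 3 that passed the filter was called. The 4 astrocyte markers all lay above the control in both shPHF2 libraries, with a median log2 fold change of 1.98. Of these 4, 1, S100b, was called higher. The other 3 were not called (limma, adjusted p from 0.092 to 0.32). The 4 markers summed to 478 normalised reads in shControl and 1263 and 1917 in shPHF2, and Aqp4 was at 0 in shControl. S100b is also in the quiescence list. The part of these cells in the values of the lysosomal list and of the quiescence list was not tested. Marker lists of neurons, the oligodendrocyte lineage, endothelium and fibroblasts had no gene called by limma. DESeq2 called Map2 lower (adjusted p = 0.019), and the neuronal sum, nearly all of it Map2, was 61830 normalised reads in shControl and 41088 and 40265 in shPHF2.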

How the data were processed

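RNA of 3 cultures was sequenced as ribosome-depleted, stranded total RNA, per the labels' protocols. HISAT2, HTSeq, DESeq2 and mm10 are named in the submitters' processing notes; their versions and the strand setting are missing from the sources used here. The deposited signal is each gene's read count divided by the library's size factor, per the file headers and values. All values (100%, within 0.001 of a whole number) were whole reads, which were recovered. The authors also deposited a log2 fold change, Wald score and p-value per gene from DESeq2, per the file headers. The 4 rows that name no gene, with 61.4% to 61.5% of reads, were left out, and no library column was unused (0 columns).

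Log2(value + 1) was fitted with limma 3.58.1 (mean-variance trend, two-sided) in R 4.3.3 for genes with a mean of at least 10, with 1 residual and 6.94 prior degrees of freedom. Recovered reads were tested with edgeR 4.0.16 and DESeq2 1.42.0 as alternatives; other pseudocounts, filters, scalings and a GC and length correction were also tried. Separate cultures are taken from the series' description; if they were not separate, p-values measure technical spread. The fit was also run on simulated data. Their control was drawn with the same spread as the shPHF2 libraries, so they cannot test whether the real control varies alike. Exon lengths, GC content and positions came from GENCODE M21. The members and lists were chosen with earlier results of these data known. The text gives in full the called members, Tfeb, Lamp1, Lamp2 and the most abundant member of each role per kilobase of exon, and up to 4 called genes of each other list by size of change.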

Additional observations from a re-analysis of the deposited data

How the results depend on the processing

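limma and edgeR called 15 of the 43 lysosomal genes each. DESeq2, the authors' deposited table and limma with a pseudocount of 5 called 14 each, Ctsa being the gene lost in these 3. With no filter on low values, with no mean-variance trend and with quantile normalization limma called 0 of them, as it called 0 of all genes; 21, 14 and 25 of the 43 then had an unadjusted p under 0.05, and the cause was not tested. In those 3 settings 0 genes of the 6 related lists were called either, against 35 in the reported fit and 28 to 39 in the other alternatives; 58, 40 and 59 had an unadjusted p under 0.05. Over all genes 3893, 3300 and 3700 had an unadjusted p under 0.05 there, while limma called 2027 and edgeR 2147. With the GC and length correction limma called 1262 genes in all, and the cause of the lower number was not tested. The list's median log2 fold change lay between 0.49 and 0.61 in every alternative run, the lower without shPHF2 replicate 2 and the higher without replicate 1. At least 2-fold differences, counted in an alternative chosen after seeing the data, were found in 7 and 12 of the 43 without replicate 2 and replicate 1. Asah1 changed sign with TMM scaling, to -0.0022. No test could be run without a replicate, since no residual degrees of freedom remain. No paired analysis was possible because the groups compared share fewer than 2 replicate numbers.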
